A study of Arabidopsis thaliana with 6 samples.

Results

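Probe sets whose signal was lower only on the late arrays form the group described here. It holds 63 of the 22746 probe sets, other than controls, on Affymetrix ATH1 arrays of Arabidopsis thaliana. They were chosen by the measured signals themselves. On the scale log2(signal + 16), the higher of both 4 h values had to lie 0.7 or more below the lowest of the 4 untreated and 1 h values, and those 4 signals had to be 100 or more. A further 2 probe sets that met these thresholds were left out by the rule. Of the 63, 30 carry a single annotated gene, 2 carry several and 31 are not listed in the annotation used, so that 33 appear under array identifiers.

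The arrays measured RNA of fluorescent root cells sorted from 5-day-old seedlings, with 2 biological replicates in each of 3 groups, which were untreated or had been given dexamethasone for 1 h or 4 h. Every seedling was of the C24 ecotype and carried J2632-UAS::ARR1ΔDDK-GR. In this construct the enhancer trap line J2632, active in the lateral root cap, drives a version of ARR1 fused to the hormone-binding part of the glucocorticoid receptor. No group was without the construct and none received dexamethasone without it, so the induced protein, dexamethasone itself and the time that passed cannot be told apart.

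ARR1 is a type-B response regulator, a transcription factor that is switched on when cytokinin signalling phosphorylates its receiver domain. A version without that domain is active regardless of cytokinin, and the receptor fusion holds it in the cytoplasm until dexamethasone is given. The lateral root cap is the outer sheath of the root tip: its cells secrete wall material, meet soil microbes first, pass auxin upward from the tip and die in an ordered way as they mature.

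The deposited columns share a common trimmed mean, so a dimming of all transcripts at 4 h could not be seen on these arrays. Between 58.1% and 67.8% of probe sets exceeded the 95th percentile of 27 Bacillus subtilis control probe sets. Over the 8236 probe sets that reached 100 on all untreated and 1 h arrays, the median level relative to each probe set's mean, which that scaling largely fixes, was -0.01 and -0.02 on the 4 h arrays and -0.01 to 0.04 on the others. At 4 h the control for 25S ribosomal RNA was 6422 and 6680, below the 7668 to 10831 of the other arrays, and the ratio of 3' to 5' GAPDH signal ranged from 3.11 to 4.65 with overlapping groups. The part of the ribosomal RNA signal in the results was not tested. In such sorted pools, fewer cells of a type and less RNA per cell cannot be told apart.

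The 63 probe sets lay at similar levels in untreated cells and at 1 h, and lower at 4 h. Their median, relative to each probe set's mean over the 6 arrays, was 0.47 and 0.41 on the untreated arrays (log2 scale), 0.42 and 0.55 at 1 h, and -0.81 and -1.06 at 4 h. The untreated mean exceeded the 4 h mean by 1.89-fold to 19.9-fold with a median of 2.49-fold. The 1 h mean exceeded it by 1.80-fold to 15.7-fold with a median of 2.66-fold. Folds throughout compare group means of log2(signal + 16), which understates differences of dim probe sets. Against untreated, 6 probe sets differed by 4-fold or more, 53 by 2-fold to 4-fold and 4 by less. These values chose the members, so they are a description and carry no test.

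**Figure D1:**
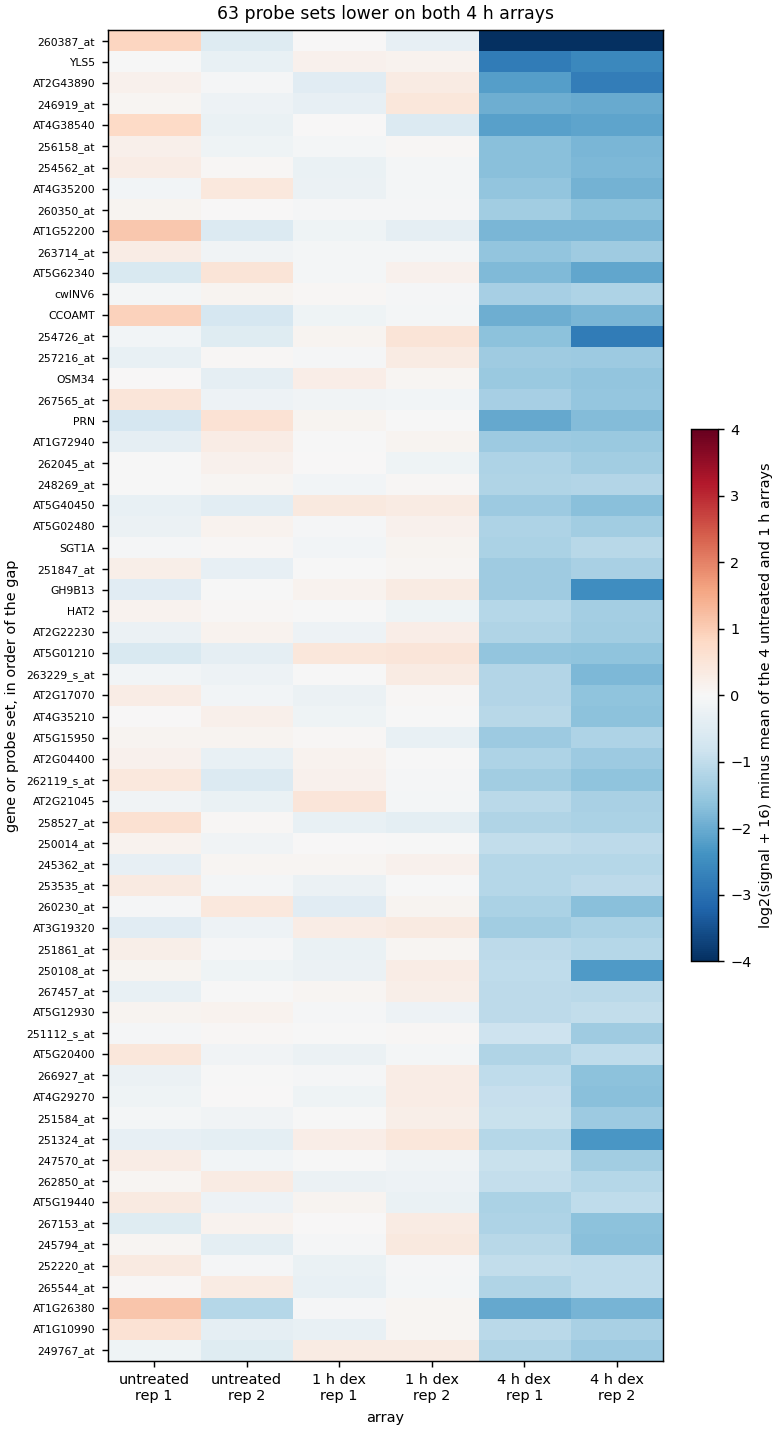
The 63 probe sets (rows, largest gap at the top) on the 6 arrays (columns), coloured by log2(signal + 16) minus the mean of the 4 untreated and 1 h arrays. Both 4 h columns are blue in every row, as the choice requires. Untreated replicate 1 is the reddest column in several rows, among them AT1G52200, CCOAMT and AT1G26380.

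Both 4 h arrays lay below all 4 others for 1449 of the 8236 probe sets at the floor of 100, or 17.6%, and the gap of 0.7 takes the far end of that set. With the same thresholds turned round, 95 probe sets lay higher at 4 h. A further 33 probe sets had a gap of 0.7 or more but missed the floor. The gap ran from 0.70 to 3.49 among the members with a median of 0.96, and 24 members had a gap of 1 or more.

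**Figure D2:**
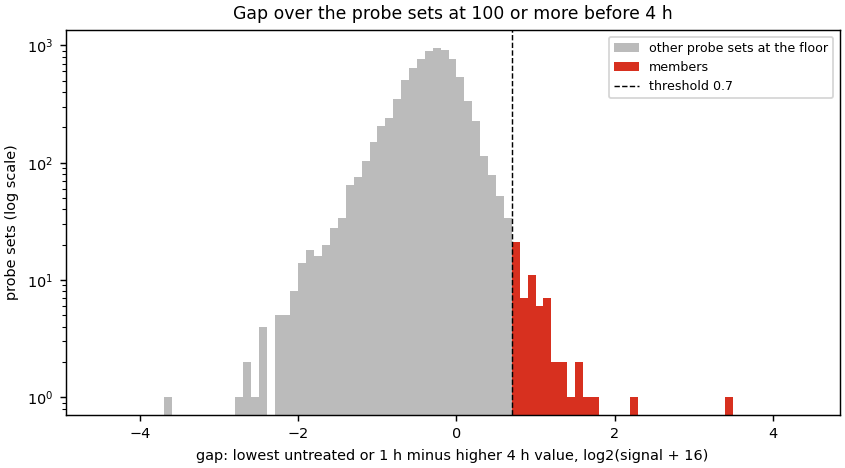
Histogram of the gap, the lowest untreated or 1 h value minus the higher 4 h value of log2(signal + 16), for the probe sets at 100 or more on the untreated and 1 h arrays, without the 2 that the rule leaves out. The count axis is logarithmic. Members (red) adjoin the other probe sets at the threshold of 0.7, where 21 lie below 0.8. They thin out to 2 above 2, at gaps of 2.27 and 3.49.

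YLS5 had the largest gap of the members with a gene name. It was first described in leaf senescence and encodes a protein of the DJ-1 family, small proteins linked to the detoxification of reactive carbonyls and to oxidative stress. Its signal was 4839 and 3987 in untreated cells, 5570 and 5355 at 1 h and 692 and 812 at 4 h. The 4 earlier arrays thus stayed within a narrow band, and untreated cells exceeded 4 h by 5.76-fold and 1 h cells by 7.16-fold. On the log2 scale its level was 12.11 ± 0.20 (SD, n = 2) untreated, 12.42 ± 0.04 at 1 h and 9.58 ± 0.16 at 4 h.

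**Figure D3:**
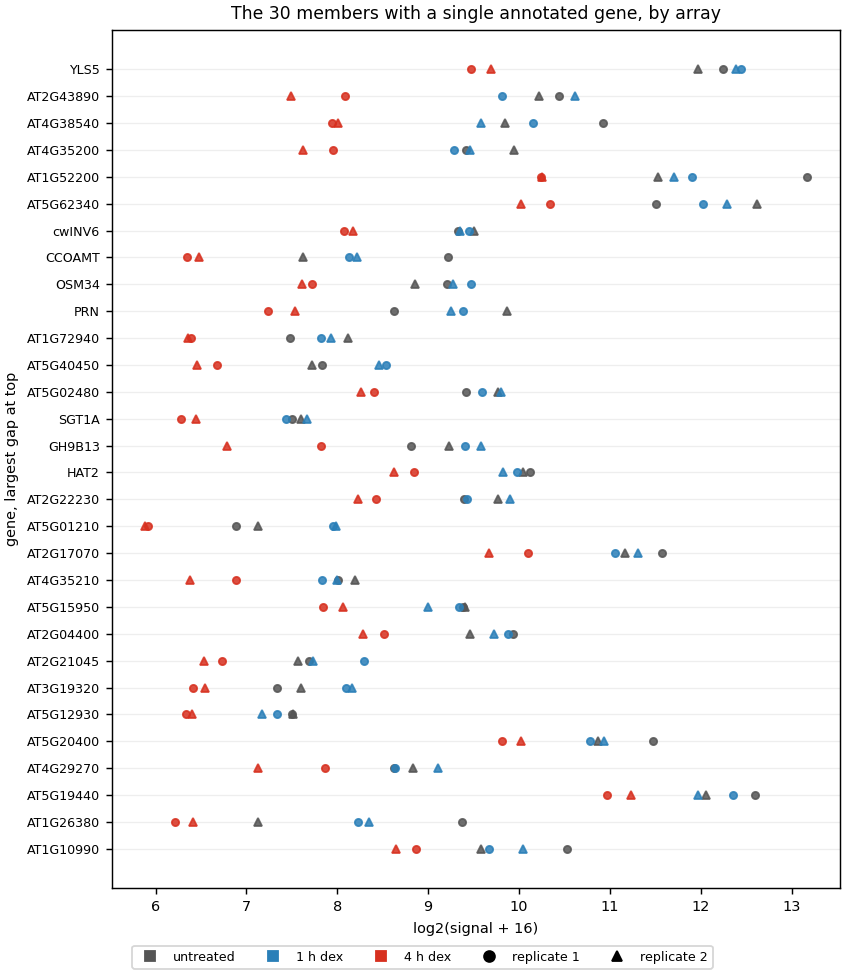
Levels of the 30 members with a single gene, one row per gene with the largest gap at the top, as log2(signal + 16) on each array. Colours mark the group and symbols the replicate. The red 4 h points lie left of all others in each row; grey and blue points overlap in most rows, and grey circles (untreated replicate 1) stand far to the right for AT1G52200, CCOAMT and AT1G26380.

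Genes with known roles in stress or immunity are described first, gathered by role and not tested as a set. OSM34, an osmotin of the thaumatin-like family of pathogenesis-related proteins, read 574 and 448 untreated, 695 and 603 at 1 h and 195 and 180 at 4 h. Its 1 h arrays were both above both untreated ones, and the untreated excess over 4 h was 2.57-fold. PRN, a pirin that interacts with the G protein alpha subunit, read 377 and 916 untreated, 653 and 592 at 1 h and 135 and 169 at 4 h (3.63-fold). The untreated replicates of PRN differed by more than its 1 h replicates did. SGT1A, a co-chaperone that stabilises immune receptors, was dim but steady, with 165 and 178 untreated, 157 and 187 at 1 h and 62.0 and 70.9 at 4 h (2.28-fold).

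AT1G72940, a protein with a Toll/interleukin receptor domain as found in immune receptors, read 162 and 262 untreated, 210 and 228 at 1 h and 68.2 and 66.1 at 4 h. AT5G02480, which resembles small heat shock proteins, read 666 and 859, 755 and 878 and 322 and 292 in the same order. The pair had untreated excesses of 2.68-fold and 2.39-fold. AT1G26380, a berberine bridge enzyme-like oxidase that makes indole-derived defence compounds, had widely spread values before 4 h: it read 647 and 124 untreated, 284 and 311 at 1 h and 58.1 and 69.2 at 4 h. Its 3.84-fold untreated excess leans on untreated replicate 1, whereas the excess of 1 h over 4 h, from closer replicates, was 3.94-fold.

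Enzymes and inhibitors of the cell wall come next. AT2G43890, a polygalacturonase-like protein of the pectin-cleaving kind, read 1370 and 1178 untreated, 887 and 1549 at 1 h and 255 and 164 at 4 h. At 5.82-fold its untreated excess was the largest among the 30 single-gene members. AT5G62340, of the family that inhibits pectin methylesterases and invertases, read 2887 and 6274 untreated, 4141 and 4977 at 1 h and 1277 and 1022 at 4 h (3.69-fold). Untreated replicate 1 was the lowest of the 4 earlier arrays for this gene.

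GH9B13, a glycosyl hydrolase of the endoglucanase family that cuts cellulose-type chains, read 432 and 583 untreated, 665 and 750 at 1 h and 211 and 94.4 at 4 h. Its 4 h replicates differed by 1.04 on the log2 scale, so the size of its 3.27-fold excess is uncertain. cwINV6 is named for cell wall invertases but degrades fructans. It was among the most even, with 629 and 712 untreated, 681 and 635 at 1 h and 254 and 272 at 4 h (2.46-fold). CCOAMT, a methyltransferase of the phenylpropanoid pathway that modifies caffeoyl-CoA, read 579 and 182 untreated, 264 and 282 at 1 h and 65.4 and 72.9 at 4 h. The other 3 earlier arrays of CCOAMT lay far below untreated replicate 1 and still above 4 h.

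A group of 3 members, AT4G35200, AT4G35210 and AT2G17070, encodes plant proteins that share a domain of unknown function, DUF241. AT4G35200 read 670 and 973 untreated, 609 and 688 at 1 h and 231 and 182 at 4 h (3.72-fold). Its direct neighbour on chromosome 4, AT4G35210, read 242 and 278 untreated, 211 and 239 at 1 h and 102 and 66.9 at 4 h (2.78-fold). AT2G17070 on chromosome 2 read 3027 and 2288 untreated, 2115 and 2528 at 1 h and 1079 and 799 at 4 h (2.80-fold). In all 3 genes 4 h replicate 2 was the lower of the pair. Whether their probes cross-hybridise was not tested.

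Other members are metabolic enzymes. AT4G38540, a flavin-dependent oxidoreductase, read 1932 and 907 untreated, 1123 and 748 at 1 h and 230 and 242 at 4 h (5.32-fold). AT2G04400, indole-3-glycerol-phosphate synthase of the tryptophan pathway, read 964 and 687 untreated, 929 and 832 at 1 h and 351 and 296 at 4 h (2.46-fold). Of 23 genes listed for tryptophan and indole glucosinolate synthesis it is the one that the annotation used here matched to a probe set, and the others were not analysed here. AT5G15950, an S-adenosylmethionine decarboxylase of polyamine synthesis, read 655 and 661 untreated, 634 and 496 at 1 h and 214 and 251 at 4 h (2.72-fold).

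AT5G01210, an acyltransferase of the HXXXD type, had its highest signal at 1 h, with 102 and 124 untreated, 232 and 237 at 1 h and 44.6 and 43.3 at 4 h. Its excess over 4 h was 2.15-fold from the untreated level and 4.18-fold from the 1 h level. AT2G21045, an arsenate reductase, read 190 and 173 untreated, 298 and 197 at 1 h and 90.4 and 76.9 at 4 h. Both genes read higher on the 1 h arrays than on either untreated array.

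AT5G20400, a 2-oxoglutarate- and iron-dependent oxygenase, read 2836 and 1862 untreated, 1748 and 1950 at 1 h and 887 and 1020 at 4 h. AT5G19440, related to cinnamyl alcohol dehydrogenases, read 6197 and 4241 untreated, 5233 and 3994 at 1 h and 1991 and 2393 at 4 h. For these oxidoreductases the untreated excess was 2.39-fold and 2.34-fold, near the median of the group. AT2G22230, a hydroxyacyl dehydratase of plastid fatty acid synthesis, read 658 and 856 untreated, 675 and 940 at 1 h and 329 and 284 at 4 h (2.38-fold). AT4G29270, of the acid phosphatase family, read 379 and 439 untreated, 381 and 538 at 1 h and 217 and 124 at 4 h, with 4 h replicate 2 well below replicate 1.

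HAT2 is a transcription factor, a class II homeodomain-leucine zipper protein whose transcript auxin induces. It read 1101 and 1044 untreated, 993 and 890 at 1 h and 445 and 379 at 4 h, an untreated excess of 2.55-fold with close replicates in each group. AT5G40450, a large protein that affects the shape of the vacuole, read 211 and 195 untreated, 354 and 337 at 1 h and 86.5 and 71.8 at 4 h. Like AT5G01210 it was highest at 1 h, with excesses over 4 h of 2.31-fold untreated and 3.81-fold at 1 h.

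AT1G52200, a cysteine-rich membrane protein of the PLAC8 family, read 9169 and 2941 untreated, 3830 and 3324 at 1 h and 1196 and 1203 at 4 h. Its 4 h replicates were nearly equal, while untreated replicate 1 stood 1.64 on the log2 scale above replicate 2. AT3G19320, a leucine-rich repeat protein, read 145 and 178 untreated, 258 and 271 at 1 h and 68.9 and 77.0 at 4 h, again with both 1 h arrays above both untreated ones. AT5G12930 and AT1G10990, for which no role is given here, had untreated excesses of 2.20-fold and 2.45-fold.

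The largest gap of all belonged to the unlisted probe set 260387_at, with 2512 and 956 untreated, 1377 and 1082 at 1 h and 56.1 and 70.5 at 4 h. It was bright before 4 h and dim afterwards, though above the background of 33.4 and 31.9 on the 4 h arrays. Its untreated excess was 19.9-fold and its 1 h excess 15.7-fold. Next among the unlisted, 246919_at read 306 and 252 untreated, 229 and 401 at 1 h and 62.2 and 59.1 at 4 h (3.83-fold). For 256158_at the signals were 630 and 482, 520 and 562 and 159 and 141 in the same order (3.43-fold).

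The brighter 254562_at read 3591 and 2997 untreated, 2404 and 2746 at 1 h and 900 and 832 at 4 h (3.74-fold). 260350_at read 1549 and 1447, 1396 and 1381 and 541 and 448 (2.98-fold), and its 4 earlier arrays spanned only 0.16 on the log2 scale. Over the 33 members without a single gene the median untreated excess was 2.48-fold, against 2.56-fold over the 30 with one. The probe sets with an annotated gene were therefore similar in size to the rest.

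The threshold falls within a continuous range. Just inside it were 249767_at, AT1G10990 and AT1G26380 with gaps of 0.701, 0.717 and 0.720. Just outside lay AT5G44770, 244903_at and AT1G48330 with 0.697, 0.695 and 0.693. AT5G44770 read 129 and 179 untreated, 137 and 154 at 1 h and 68.9 and 73.5 at 4 h, and AT1G48330 read 2696 and 2352, 1911 and 2336 and 1167 and 1176. Probe sets on either side of the threshold thus differ little. Of the members, 62 exceeded the background on both 4 h arrays. The exception, 254726_at, read 69.9 and 22.5 there, with the second value below background.

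The members varied in how well replicates matched. The 4 h replicates differed by a median of 0.20 on the log2 scale, against 0.14 over the 8236 probe sets at the floor. In 43 of 63 members (68.3%) replicate 2 was the lower one, against 50.4% of those 8236. The replicates lay more than 1 log2 unit apart in 4 members, GH9B13, 254726_at, 250108_at and 251324_at, and replicate 2 was lower in each. Untreated replicates differed by a median of 0.35 and 1 h replicates by 0.19.

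Untreated replicate 1 exceeded replicate 2 by more than 1 log2 unit in 5 members, 260387_at, AT4G38540, AT1G52200, CCOAMT and AT1G26380, and lay below it by more than 1 log2 unit in AT5G62340 and PRN. The 4 earlier arrays spanned less than 0.5 in 19 members and more than 1 in 8. The steadiest named members by that span were cwINV6 (0.18) and SGT1A (0.23).

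The difference between 1 h and untreated was not itself a criterion of the choice. The rule did use both groups' values through their lowest, so a transcript already near its 4 h level at 1 h could not be a member. The values at 1 h are therefore given as a description, beside those of all probe sets, and nothing about an early fall can be read from them. In limma none of the 63 passed an adjusted p under 0.05, against 0% of all 22746 probe sets, of which 1314 had an unadjusted p under 0.05. The smallest adjusted p among the members was 0.759. At an unadjusted p under 0.05 there were 5 members (7.94%), against 1.75% of the 8236 probe sets at the floor. The median difference of the members was 0.05 on the log2 scale, with 34 higher and 29 lower at 1 h, beside -0.01 for the probe sets at the floor and -0.00 for all.

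The members with the smallest p pointed mostly upward. AT5G01210 differed by 0.93 (SE 0.21), AT5G40450 by 0.73 (SE 0.23), AT3G19320 by 0.66 (SE 0.22) and 249767_at by 0.68 (SE 0.25). Only 258527_at, at -0.70 (SE 0.28), was lower among these 5. Their adjusted p ranged from 0.759 to 0.837, so none is called. YLS5 differed by 0.35 (SE 0.22) and OSM34 by 0.38 (SE 0.24).

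Both 1 h arrays lay above both untreated arrays in 13 members (20.6%), against 13.3% of the probe sets at the floor. They lay below in 10 members (15.9%), against 15.7%. These shares come from the values that the rule used and are no test. In 55 members (87.3%) the 1 h difference was smaller than 0.5 in either direction. The share was 94.2% of the probe sets at the floor and 81.7% of all probe sets.

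**Figure D4:**
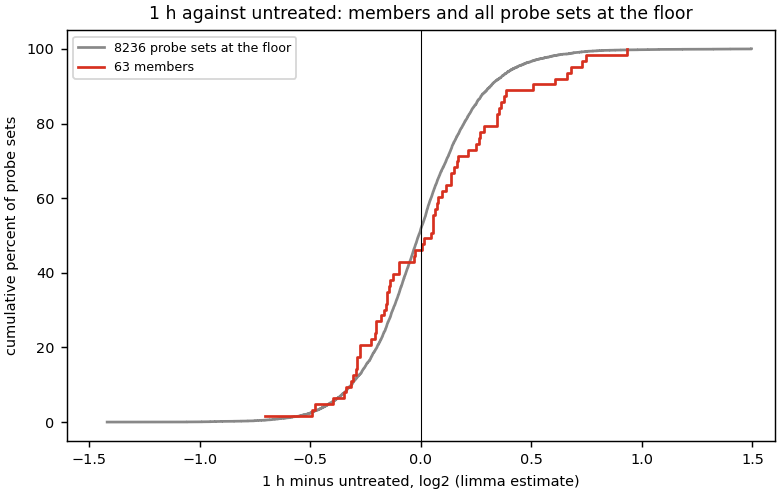
Cumulative percentage of probe sets against the log2 difference of 1 h from untreated, as estimated by limma, for the 63 members (red) and the 8236 probe sets at the floor (grey). Both curves cross 0 near the middle, at medians of 0.05 and -0.01, and the red curve runs to the right of the grey one in its upper part, up to 0.93 for AT5G01210.

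At 4 h limma tests the contrasts that the rule used, and its calls are given as a description only. Against untreated none of the members passed, with a smallest adjusted p of 0.0816 for YLS5, and 0.0044% of all probe sets were called lower. All 63 had an unadjusted p under 0.05 in that contrast, on which they were chosen, as did 2066 of all 22746 probe sets. Against 1 h, YLS5 fell with an adjusted p of 0.0386, the one call among the members, and 0.00879% of all probe sets were called lower. These counts depended strongly on how the spread was modelled. With limma's trend option, which lets the prior variance depend on the mean signal, 28 members were called against untreated, where 0.154% of all probe sets were called lower, and 25 against 1 h, where 0.132% were. With a pseudocount of 64 the counts were 23 (0.123% of all lower) and 16 (0.0923%). Among the 10040 probe sets at 100 or more on at least 2 arrays they were 36 and 28 (0.408% lower in both contrasts). The replicate block ended the call of YLS5. Leaving out any array did so too, but such a fit has a single array in a group and calls less readily for every probe set.

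Relatives of the members were measured on the same arrays. A gene that met the rule is a member and not a relative, so the largest falls were removed from the counts of relatives. In 8 protein families that hold 10 of the members, the annotation used matched 46 other genes to a probe set. Of these, 18 exceeded background on every array. That annotation lists no gene for 8730 probe sets, so further relatives on the arrays may be missing here. The families were picked after their signals had been seen. Among the 18, 8 were lower at 4 h than untreated and the median log2 difference was 0.06. Both 4 h arrays lay below all others in 2 of the 18, beside 17.6% of the probe sets at the floor, members included. The 18 did not have to reach that floor. None of the 18 was called in limma at 4 h against untreated, where 1 of all 22746 probe sets was called. At an unadjusted p under 0.05 there were 3 of the 18, beside 2066 of all 22746 probe sets.

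The 2 with separated arrays were both DUF241 genes. AT2G17080, the neighbour of AT2G17070, read 4594 and 3926 untreated, 3417 and 3602 at 1 h and 2575 and 2240 at 4 h. Its limma difference of 4 h from untreated was -0.82 (SE 0.22, adjusted p = 0.355). AT1G76240 read 4944 and 4945, 5342 and 4806 and 3899 and 3698, which gave -0.38 (SE 0.22, adjusted p = 0.686). The third DUF241 relative above background on all arrays, AT4G35660, was dim, at 39.7 and 50.1 untreated and 48.8 and 38.1 at 4 h.

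In the other 7 families the 15 relatives above background lay on both sides of their untreated level. DJ1D, of the DJ-1 family of YLS5, read 1906 and 1615 untreated and 1873 and 1878 at 4 h, which gave 0.11 (SE 0.23, adjusted p = 0.929). SAMDC (AT3G02470), the second S-adenosylmethionine decarboxylase above background, read 5393 and 5297 untreated and 5856 and 6908 at 4 h, which gave 0.24 (SE 0.22, adjusted p = 0.819). AT5G62350, next to AT5G62340 and of the same inhibitor family, was higher at 4 h, with 402 and 469 untreated, 556 and 513 at 1 h and 931 and 876 at 4 h, which gave 1.05 (SE 0.22, adjusted p = 0.297). Of the 2 thaumatin-like relatives above background, 1 was lower at 4 h. The other, AT4G36010, was higher, at 4352 and 4325 untreated and 9020 and 10815 at 4 h, which gave 1.17 (SE 0.26, adjusted p = 0.312).

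AT2G43880, also a polygalacturonase, is the gene next to AT2G43890. It read 3161 and 1551 untreated, 2104 and 1241 at 1 h and 1809 and 1865 at 4 h, and AT2G43870 of the same family read 4343 and 1968, 2168 and 1323 and 2123 and 2192. In both the groups overlapped, whereas AT2G43890 had been chosen for groups that do not. Among the endoglucanases GH9B7, GH9C2, GH9C3 and GH9B6 the differences were 0.04 (SE 0.28, adjusted p = 0.982), -0.02 (SE 0.41, adjusted p = 0.996), 0.15 (SE 0.44, adjusted p = 0.952) and 0.62 (SE 0.54, adjusted p = 0.805). The berberine bridge enzyme-like genes AT1G30700 and AT5G44380 gave 0.42 (SE 0.38, adjusted p = 0.808) and -0.09 (SE 0.24, adjusted p = 0.943), with overlapping groups.

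**Figure D5:**
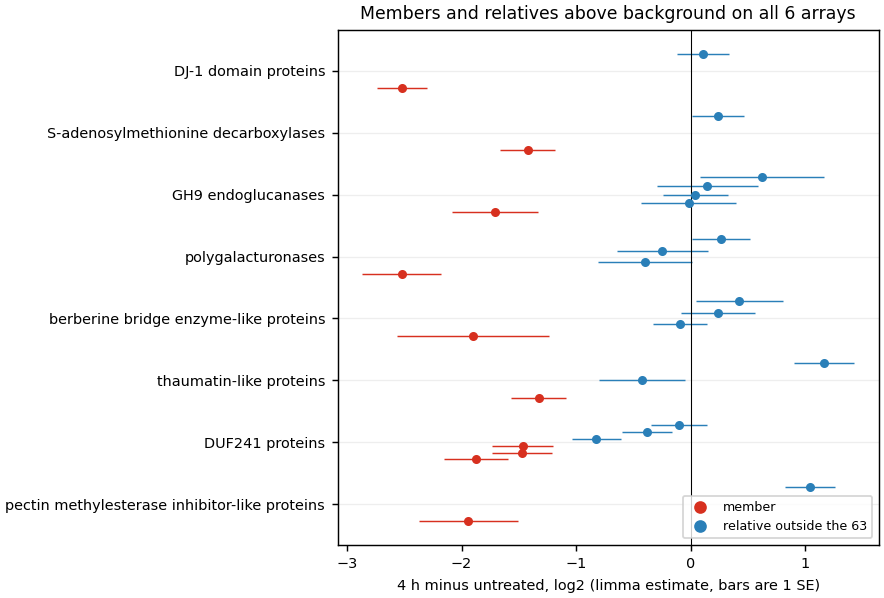
Log2 difference of 4 h from untreated, as estimated by limma with bars of 1 SE, for members (red) and relatives outside the 63 (blue) that exceeded background on all 6 arrays, by protein family. The red points lie left of 0 because they were chosen so. The blue points lie on both sides of 0, and in the DUF241 row AT2G17080 and AT1G76240 lie left of it.

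Position along the chromosomes was examined through the order of genes in RefSeq. The 30 genes lie on all 5 chromosomes: 5, 6, 2, 7 and 10 on chromosomes 1 to 5. The single-gene probe sets of the array are split 25.7%, 16.4%, 20.4%, 14.6% and 22.4%. The annotation used matched 35 probe sets to direct neighbours of the 30, and other neighbours were not followed. Among the 30, the pair AT4G35200 and AT4G35210 was the one case of adjacent members. Members without a single gene could not be placed. Of the 33 other neighbours, 20 exceeded background on all arrays. Their median log2 difference of 4 h from untreated was -0.05, with a range from -0.82 to 1.03. Both 4 h arrays lay lowest in 4 of these 20, from which members were removed, beside 17.6% of the probe sets at the floor, members included.

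The labelled cell type could be checked in part. Of 14 genes listed for root cap differentiation and cell death, 5 were matched to a probe set by the annotation used, all above background. None of the 5 is a member or passed the test in any contrast. Of all 22746 probe sets, 0 passed at 1 h and 1 at 4 h against untreated, and 5 at 4 h against 1 h. The summed signal of the 5 genes was 14413 and 10752 untreated, 16558 and 12377 at 1 h, and 10524 and 11067 at 4 h. The carboxypeptidase-like scpl48 read 3852 and 3841 untreated, 5155 and 3932 at 1 h and 2380 and 2689 at 4 h, with a gap of 0.51, and the protease PASPA3 (AT4G04460) read 5545 and 3578, 5435 and 3912 and 3964 and 4110. The pectinase AT1G65570 read 643 and 771 untreated, 1550 and 1539 at 1 h and 978 and 706 at 4 h, with both 1 h arrays above the other 4. In limma it differed from untreated by 1.15 (SE 0.26) at 1 h (adjusted p = 0.759) and by 0.27 (SE 0.26, adjusted p = 0.823) at 4 h, and 4 h differed from 1 h by -0.88 (adjusted p = 0.414). The list median at 4 h was -0.09 against -0.01 for all probe sets. Markers of other root cell types were near background: 6 of 26 were matched, 1 of them above it on 4 or more arrays, and their summed signal was 160 to 172 untreated, 160 to 203 at 1 h and 146 to 185 at 4 h. AT4G28100 exceeded background on 5 arrays, and AT1G09750 and EXPA18 on 2 each. The cortex marker AT1G62500, the quiescent centre marker AGL42 and the root hair marker EXPA7 exceeded background on no array.

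The other gene lists could be followed only in part, since the annotation used lists no gene for 8730 probe sets. No gene in these lists was called against untreated, where 0 of all 22746 probe sets were called at 1 h and 1 at 4 h. Of the 26 genes matched over all lists, 6 had an unadjusted p under 0.05, 4 of them outside the 63. Over all probe sets, 2066 of 22746 did. Of 24 senescence and sugar starvation genes 5 were matched. One is YLS5, which was chosen for its 4 h signal. Of the other 4, 3 were lower at 4 h with a median of -0.19. Among the probe sets at the floor, which these 4 did not have to reach, 53.7% were lower, with a median of -0.03. SAG101, an acyl hydrolase-like protein of senescence and immunity, read 852 and 486 untreated, 491 and 502 at 1 h and 363 and 299 at 4 h, which gave -0.89 (SE 0.31, adjusted p = 0.46). WRKY53, a regulator of leaf senescence, was on the other side, with 1687 and 2145 untreated and 2555 and 2391 at 4 h. Senescence genes outside the 63 therefore lay on both sides of the untreated level.

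COR47, a dehydrin and the brighter of 2 matched genes of the abscisic acid and dehydration list, read 1368 and 1663 untreated, 3145 and 2597 at 1 h and 3253 and 3495 at 4 h, which gave 1.16 (SE 0.24, adjusted p = 0.289). COR15A of that list stayed below background. EIN3 and STZ, of ethylene signalling and stress, differed at 4 h by 0.05 (SE 0.23, adjusted p = 0.973) and 0.04 (SE 0.22, adjusted p = 0.98). Among 4 reference genes the median at 4 h was -0.14, with -0.36 (SE 0.27, adjusted p = 0.765) for GAPC2 and 0.36 (SE 0.23, adjusted p = 0.724) for AT4G34270. BGLU28, the matched gene of the phosphate and sulfate list, stayed below background. No gene of the lists for jasmonate, nitrogen and heat shock was matched to a probe set by the annotation used, and these lists were not analysed here.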

How the data were processed

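RNA of 6 samples was labelled with biotin in 2 cycles and hybridised to ATH1 arrays, per the labels. The deposited values are intensity values on a linear scale, 1 per probe set and array. The software that made them is not given in the sources used here. The 2% trimmed mean of every column was 250.03, so the authors' columns share a common scale. Of 22810 rows, 64 are controls.

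The members were found on log2(signal + 16) without further normalization. For tests, these log2 values of the deposited intensity were quantile normalized, since column medians spanned 0.215. All 6 arrays entered a fit with group means in limma 3.58.1 (R 4.3.3). P-values are two-sided and adjusted over 22746 probe sets by the Benjamini-Hochberg method. SE values come from this fit. The same code was tested on simulated data. Replicates are labelled as biological.

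Genes come from the 2016 platform annotation and a RefSeq gene table: 13513 probe sets have 1 gene, 503 several and 8730 none listed, and 13436 of the first were matched to a locus. A gene with several probe sets is represented by the brightest. Every member with 1 gene could be named. Members without one were limited to the 5 of largest gap, those near the threshold and those that a count singled out. The 11 gene lists hold 212 entries, of which 26 were matched to a probe set through this annotation. Members and lists were chosen with earlier results of these data known, and the protein families and their relatives after their signals were seen. Same-numbered replicates were checked for pairing: their deviations correlated by 0.12, -0.02 and -0.04 between groups, so the numbers were not taken as pairs.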

Additional observations from a re-analysis of the deposited data

Results flagged for a closer look

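YLS5 is marked for a closer look because its 4 h level differed from its 1 h level in a test of the difference itself (limma adjusted p = 0.0386). The rule that chose the members used the same contrast, and the call was lost when any 1 of the 6 arrays was left out. A fit without 1 array has a single array in a group and calls less readily for every probe set, so that loss is not particular to YLS5. The signal of YLS5 was lower on both 4 h arrays than on all 4 others.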

How the results depend on the processing

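The count of members moved with the rule: 24 with a gap of 1.0, 149 with a gap of 0.5, 60 on quantile normalized values (57 of them shared with the 63), 44 with a pseudocount of 64, 48 with a floor of 200 and 68 with a floor of 50. Leaving out 1 array gave 69 to 146, and by construction kept all 63, since fewer arrays loosen the rule; untreated replicate 1 (108), 4 h replicate 1 (146) and 4 h replicate 2 (99) moved it most. At 1 h, none of the 63 and none of all probe sets passed under any alternative. The median 1 h difference was 0.01 without normalization and 0.01 with a pseudocount of 64. Leaving out 1 untreated or 1 h array gave -0.072 to 0.073, with -0.072 without untreated replicate 2 and -0.06 without 1 h replicate 2, so its sign varied. Calls of members against untreated numbered 23 with a pseudocount of 64, 36 among probe sets at 100 or more on at least 2 arrays and 28 with limma's trend option for the prior variance, against 0 otherwise; over all probe sets tested 28, 41 and 35 were called lower. Against 1 h they numbered 16, 28 and 25 in the same order, with 21, 41 and 30 called lower over all, and 1 without normalization. They fell to 0 with the replicate block, and leaving out any 1 array also gave 0 to 0. The precision is limited by 2 arrays a group. All these alternatives were planned.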

Other observations

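A further 86 probe sets at the floor had a gap between 0.5 and 0.7, 43 of them with a single gene; those named here were chosen after their values were seen. WRKY22, a transcription factor of immune signalling, read 2354 and 1543 untreated, 1119 and 1517 at 1 h and 758 and 689 at 4 h, with a gap of 0.55. STR18, of the sulfurtransferase family, read 451 and 791, 488 and 731 and 311 and 305 in the same order. The cytochrome P450 gene CYP71B23 read 1659 and 485, 638 and 571 and 327 and 337, with untreated replicate 1 far above the other earlier arrays, as in CCOAMT and AT1G26380. AT5G20950, a glycosyl hydrolase, read 2589 and 3070, 3091 and 3418 and 1804 and 1734. These values were selected on the same contrast as the members and carry no test.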
